A study of Mus musculus with 2 samples.

Results

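The genes described here break down monoamines or carry them into cells. They are *Maoa* and *Maob*, which encode the monoamine oxidases A and B, *Aldh2* and *Aldh1a1*, which encode aldehyde dehydrogenases, and *Slc22a3* and *Slc29a4*, which encode the organic cation transporter 3 and the plasma membrane monoamine transporter. They were chosen by gene symbol, and these 6 genes of 32285 in the count tables all had counts in both libraries. They were measured by single-cell RNA sequencing (scRNA-seq) in 2 libraries, replicates 1 and 2 of adult mouse striatum, from untreated mice that the labels give as 8 to 10 weeks old, with lower ranges in the design text and the paper's methods. The labels name the strain both as C57BL/6NTac and as C57/Bl6J, and both libraries carry the remark that glia were enriched. The paper's methods describe male mice and a dissociation that favours non-neuronal cells. There was 1 condition, and the comparisons below are between cell classes of the same suspensions and between *Crym*-positive and *Crym*-negative astrocytes, *Crym* being the gene of μ-crystallin on which the study centres.

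Dopamine, noradrenaline and serotonin that are released in the striatum are cleared by uptake and then by oxidation. Monoamine oxidases on the outer mitochondrial membrane turn the amines into aldehydes, which aldehyde dehydrogenases turn into acids. Monoamine oxidase A prefers serotonin and noradrenaline, monoamine oxidase B prefers phenethylamine and acts in the route from putrescine to GABA in astrocytes, and both oxidise dopamine. Organic cation transporter 3 and the plasma membrane monoamine transporter take up monoamines with low affinity and high capacity, in contrast to the high-affinity transporters of monoaminergic neurons.

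The libraries held 6978 and 5437 cell barcodes with 44597660 and 37982720 unique molecular identifiers (UMIs), and 9 barcodes occurred in both. The 6783 and 5212 cells kept fell into 14 classes that each library filled with 20 or more cells, named "X-like" after their marker genes, with 85 and 11 erythroid-like cells and 29 and 36 cells of an unnamed cluster left outside. The unnamed cluster held high counts of both endothelial and pericyte markers. A level below is the share of UMIs of a class scaled to 1000000 UMIs (CPM), given for library 1 and then library 2. Of the 6 genes, *Aldh2* had 7157 UMIs in the kept cells, *Maoa* 4058, *Aldh1a1* 1189, *Maob* 996, *Slc29a4* 246 and *Slc22a3* 52. The precision therefore differed widely between the genes, and statements on the transporters rest on few molecules.

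The upstream sequences of 3 of the genes are shown as examples with different classes of highest expression: endothelial-like for *Maoa*, neuron-like for *Slc22a3* and neuroblast-like for *Slc29a4*. Each is the 250 bases before the RefSeq start on GRCm38, read 5′ to 3′ on the strand of the gene, with the GC-box core GGGCGG, or CCGCCC on the other strand, in capitals.
Maoa, chrX:16619448-16619697, plus strand: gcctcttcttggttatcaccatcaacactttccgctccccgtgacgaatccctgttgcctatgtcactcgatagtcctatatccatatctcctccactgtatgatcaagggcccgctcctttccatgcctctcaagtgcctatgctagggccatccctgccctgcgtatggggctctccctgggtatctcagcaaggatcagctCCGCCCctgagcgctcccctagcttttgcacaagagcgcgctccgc
Slc22a3, chr17:12507705-12507954, minus strand: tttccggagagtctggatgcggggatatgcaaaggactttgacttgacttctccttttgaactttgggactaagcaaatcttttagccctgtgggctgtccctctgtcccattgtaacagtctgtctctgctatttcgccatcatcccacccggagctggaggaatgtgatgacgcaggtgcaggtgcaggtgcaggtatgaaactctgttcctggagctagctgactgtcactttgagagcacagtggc
Slc29a4, chr5:142701851-142702100, plus strand: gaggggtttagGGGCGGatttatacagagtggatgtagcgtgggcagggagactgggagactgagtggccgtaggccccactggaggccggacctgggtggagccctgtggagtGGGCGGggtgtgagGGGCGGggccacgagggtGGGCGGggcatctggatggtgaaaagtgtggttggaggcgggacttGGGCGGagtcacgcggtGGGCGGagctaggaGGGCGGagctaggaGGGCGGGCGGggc
The core occurred 9 times before *Slc29a4*, some of them overlapping, 1 time before *Maoa* and 0 times before *Slc22a3*. Of 32851 promoters of the same length, 32.7% held it at least 1 time and 0.0731% at least 9 times. The GC content was 68.8% for *Slc29a4*, 56.8% for *Maoa* and 51.2% for *Slc22a3*, against a median of 52.4%. The stretch before *Slc29a4* lies inside the gene as the GENCODE annotation spans it, which begins further upstream than the RefSeq start used here. For *Aldh1a1*, whose 2 stretches are not printed, the core occurred 0 times in both, at a GC content of 42.8% and 46.4%. A match of these letters is a description and not a binding site.

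In the annotation of GRCm38, *Maoa* spans bases 16619698 to 16687818 of chromosome X on the plus strand and *Maob* bases 16709282 to 16817366 on the minus strand. Their 3′ ends face each other across 21463 bases without overlap. *Aldh2* lies at 121566027 to 121593824 of chromosome 5, *Aldh1a1* at 20492715 to 20643465 of chromosome 19, *Slc22a3* at 12418960 to 12507704 of chromosome 17 and *Slc29a4* at 142692512 to 142722490 of chromosome 5. *Aldh2*, *Aldh1a1* and *Slc22a3* overlap genes on the opposite strand, and whether strand was used in counting is not given in the sources used here. The antisense gene within *Slc22a3*, *AC132106.1*, had 38 UMIs, of which 25 were in neuron-like cells, while *Plg*, which overlaps *Slc22a3* as well, had 0. The paralogue *Aldh1a7*, which lies 49487 bases from *Aldh1a1*, had 24 UMIs.

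Counts summed per library and class were compared in edgeR's quasi-likelihood test for all 91 pairs of classes, with Benjamini-Hochberg adjustment over 14882 genes in each pair. Over all genes, 40.7% of the tests passed the threshold of 0.05. *Aldh2* passed it in 73 of 91 pairs (80.2%), *Aldh1a1* in 62 (68.1%), *Maob* in 53 (58.2%), *Maoa* in 49 (53.8%), *Slc29a4* in 36 (39.6%) and *Slc22a3* in 18 (19.8%). The 4 enzymes were therefore above the share of all genes, *Slc29a4* was near it and *Slc22a3* was below it. The enzymes also had more UMIs than the transporters, and the share was not taken over genes of like counts. With each cell thinned to 1000 UMIs, *Maoa*, *Maob* and *Aldh1a1* were near the share of all genes, then 25.1%. The part of the counts in this order was not tested. The tests scale the sums with TMM factors, from 0.71 to 1.29, a span of 0.86 on the log2 scale. A prior count of 2 draws the fitted differences of genes with few counts further towards 0, so that these can be far smaller than the ratio of CPM. Each SE was derived from the test, as the size of the fitted difference over the square root of the F statistic. It is thus not a measure of precision separate from the p-value. With library sizes alone the sign differed in 1 to 6 of the 91 pairs for each gene, and none of these pairs had passed the threshold. The classes share their libraries, so the pairs are not independent of each other. With the library as a block, p-values set differences between classes against how such differences varied between 2 libraries. The estimate of this spread draws on all classes of the fit and on other genes.

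**Figure D1:**
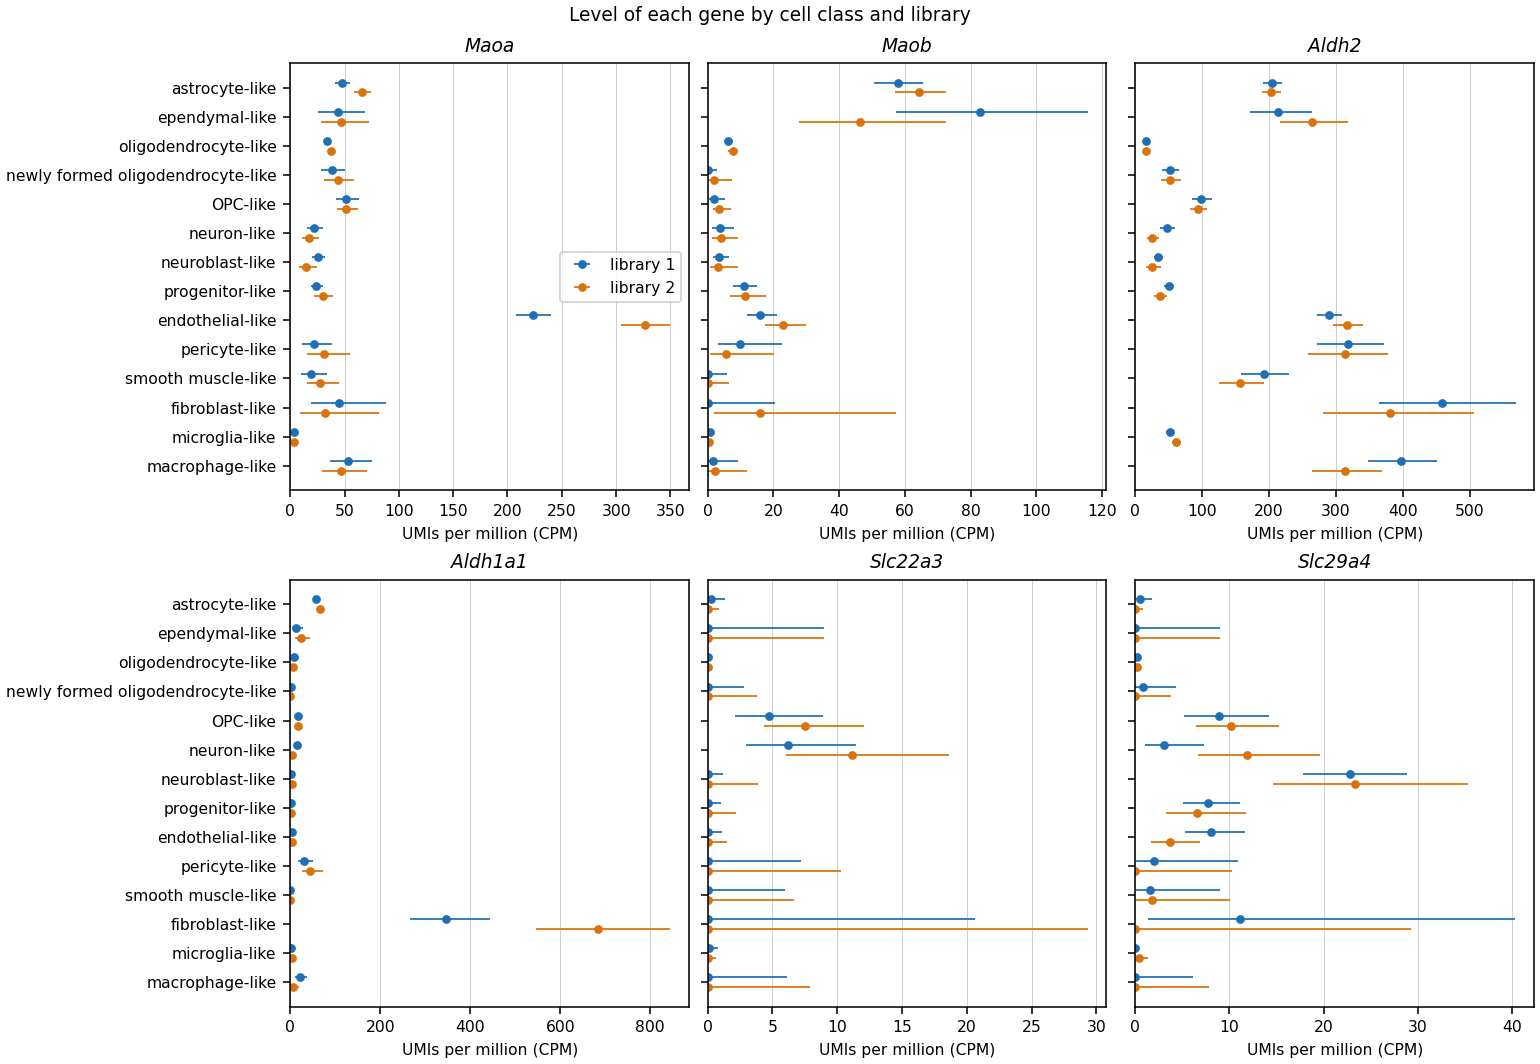
The level of each gene in CPM (x axes, linear, differing between panels) in 14 cell classes (y axes) is shown for library 1 in blue and library 2 in orange, with exact Poisson 95% intervals for counting error. *Maoa* stands apart in endothelial-like cells at 223.3 and 326.5 CPM, *Maob* in ependymal-like and astrocyte-like cells, *Aldh1a1* in fibroblast-like cells, *Slc22a3* in neuron-like and OPC-like cells and *Slc29a4* in neuroblast-like cells, while *Aldh2* is spread over many classes.

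*Maoa* was highest in endothelial-like cells, which line the blood vessels. Its level there was 223.3 and 326.5 CPM (mean 274.9 ± 72.99, SD, n = 2), and it was higher than in each of the 13 other classes. Across all genes, 23.8% of the tests of endothelial-like cells against another class found them higher. Astrocyte-like cells came next at 47.92 and 66.28 CPM, and the difference was 2.25 ± 0.18 on the log2 scale (SE, adjusted p = 7.943e-11, edgeR). Pericyte-like cells, which wrap the same capillaries, had 21.48 and 30.81 CPM and were lower than endothelial-like cells by 3.62 ± 0.27 (adjusted p = 1.156e-10). Smooth muscle-like cells of the vessel wall had 19.33 and 26.99 CPM. Within the vessel wall, *Maoa* thus separated the lining cells from the mural cells without overlap. Endothelial-like cells were 11.85% and 11.51% of cells and held 38.01% and 38.66% of the *Maoa* UMIs.

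Below the endothelial-like cells, the mean level of *Maoa* ran from 57.1 CPM in astrocyte-like to 3.658 CPM in microglia-like cells. Astrocyte-like cells were higher than OPC-like cells, the oligodendrocyte precursors, at 51.78 and 51.82 CPM, by 0.59 ± 0.19 in the scaled test (adjusted p = 0.01380), although their CPM in library 1 was lower. The next in order were macrophage-like cells at 53.4 and 46.93, ependymal-like cells at 43.8 and 46.38, newly formed oligodendrocyte-like cells at 38.59 and 43.64, fibroblast-like cells at 44.69 and 31.79 and oligodendrocyte-like cells at 34.1 and 37.88 CPM. No neighbours in this stretch passed the threshold. Oligodendrocyte-like cells exceeded progenitor-like cells, at 24.15 and 29.88 CPM, by 0.94 ± 0.20 (adjusted p = 0.0001965). Neuroblast-like cells had 25.46 and 14.87 CPM and neuron-like cells 21.75 and 17.46 CPM. The lowest level was in microglia-like cells, at 3.661 and 3.654 CPM, lower than in each of the 13 other classes, where 21.7% of all tests found microglia-like cells lower. The nearest class above, the neuron-like cells, exceeded them by 1.65 ± 0.28 (adjusted p = 1.371e-05).

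The share of cells with a *Maoa* UMI followed the same ends of this order. It was 43.41% and 54.33% of endothelial-like cells, with a median of 2692.5 and 3255.5 UMIs per cell, and 2.324% and 1.951% of microglia-like cells, with 6928 and 5500. Free RNA was not estimated, and its part in these shares was not tested. Each cell was then thinned to 1000 UMIs and shallower cells were left out, which kept 610 and 485 endothelial-like, 965 and 871 astrocyte-like and 1020 and 968 microglia-like cells. After thinning the shares were 16.72% and 24.74% of endothelial-like, 4.56% and 5.626% of astrocyte-like and 0.2941% and 0.1033% of microglia-like cells. Both endothelial shares stayed above the astrocyte-like and microglia-like ones at equal depth.

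*Maob* was highest in ependymal-like and astrocyte-like cells. Ependymal-like cells, which line the ventricle, had 82.74 and 46.38 CPM (64.56 ± 25.71, SD, n = 2) from 57 and 49 cells, and astrocyte-like cells had 57.84 and 64.38 CPM (61.11 ± 4.622). The classes overlapped, the scaled difference of ependymal-like over astrocyte-like cells was -0.25 ± 0.29 (adjusted p = 0.6062), and its sign was positive with library sizes alone. At a resolution of 0.32, where 382 of the 414 cells named ependymal-like were neuron-like cells of the clustering used here, it was lower than the astrocyte-like class by 0.84 (adjusted p = 0.03463). In the clustering used here the ependymal-like and astrocyte-like classes were each higher than the 12 remaining classes. Over all genes, 23.6% of the tests of astrocyte-like cells and 17.3% of those of ependymal-like cells found the class higher. Endothelial-like cells came next at 16.07 and 23.09 CPM, below astrocyte-like cells by 1.62 ± 0.24 (adjusted p = 3.618e-06), and exceeded progenitor-like cells at 10.98 and 11.36 CPM by 0.89 ± 0.29 (adjusted p = 0.01253).

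The lower end of the *Maob* order held most of the oligodendrocyte lineage, the neurons and the immune cells. Oligodendrocyte-like cells had 6.234 and 7.618 CPM and were below astrocyte-like cells by 2.67 ± 0.23 (adjusted p = 3.958e-10). OPC-like cells had 2.092 and 3.543 CPM, neuron-like cells 3.729 and 3.969, neuroblast-like cells 3.59 and 3.186, and microglia-like cells 0.7041 and 0.3654 CPM. Fibroblast-like cells had 0 and 15.9 CPM, the latter from 2 UMIs, and pericyte-like cells 9.764 and 5.602 CPM. Smooth muscle-like cells had no *Maob* UMI in either library. The level over both libraries in ependymal-like cells was 25.3-fold the limit a count of 0 allows there, leaving out the counting error of the ependymal-like level. Apart from oligodendrocyte-like over neuron-like cells, at 1.32 ± 0.39 (adjusted p = 0.005773), no neighbours below the progenitor-like cells passed the threshold. Astrocyte-like cells were 17.85% and 18.67% of cells and held 48.98% and 53.35% of the *Maob* UMIs. A *Maob* UMI was found in 13.71% and 20.76% of astrocyte-like, 36.84% and 26.53% of ependymal-like and 0.4468% and 0.1951% of microglia-like cells, and after thinning in 3.834% and 4.478%, 5.66% and 6.122%, and 0.09804% and 0.1033%.

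Each UMI stands for 1 captured RNA molecule, and how well each transcript was captured was not measured, nor was the amount of enzyme. For captured RNA, the balance of the 2 oxidase genes is given as the share of *Maob* among the UMIs of both. It was 54.69% (exact 95% interval 49.89% to 59.43%) and 49.27% (45.02% to 53.54%) in astrocyte-like cells and 65.38% (50.91% to 78.03%) and 50% (33.38% to 66.62%) in ependymal-like cells. In endothelial-like cells it was 6.716% (5.086% to 8.673%) and 6.605% (5.04% to 8.473%). Astrocyte-like cells, taken as a class, thus held like numbers of UMIs of both transcripts, and endothelial-like cells held mostly *Maoa*. Ependymal-like cells held 34 *Maob* and 18 *Maoa* UMIs in library 1 and 19 of each in library 2. Between the astrocyte-like and endothelial-like shares lay progenitor-like cells at 31.25% and 27.54% and oligodendrocyte-like cells at 15.46% and 16.74%. OPC-like cells were as low as the endothelial-like cells at 3.883% and 6.4%. Smooth muscle-like cells had 0 *Maob* among 12 and 15 UMIs. The astrocyte-like class was not uniform. Its cluster 3 had 34.69% (21.67% to 49.64%) and 30.23% (17.18% to 46.13%), cluster 5 had 58.44% and 50.86%, and cluster 6 had 52.5% and 51.16%. Intervals cover counting error only, and no test was made of these shares.

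**Figure D2:**
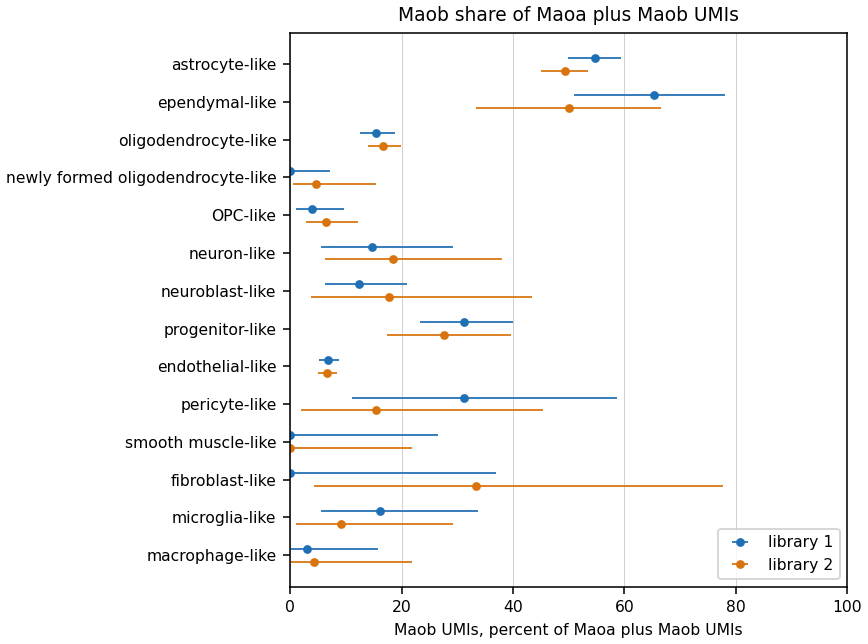
*Maob* UMIs as a percent of *Maoa* plus *Maob* UMIs (x axis) by cell class (y axis) in library 1 (blue) and library 2 (orange), with exact binomial 95% intervals. Astrocyte-like and ependymal-like cells sit between 49.27% and 65.38%, and endothelial-like cells sit at 6.716% and 6.605%.

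In single astrocyte-like cells the 2 transcripts were mostly caught one at a time. *Maoa* alone was seen in 116 and 133 cells, *Maob* alone in 119 and 124, both in 47 and 78, and neither in 929 and 638. In endothelial-like cells *Maoa* alone was seen in 314 and 291 cells, *Maob* alone in 11 and 6, and both in 35 and 35. At the depth of these cells, with 1909 and 2827 UMIs in the median astrocyte-like cell, a missing transcript does not show that a cell lacks it.

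*Aldh2*, the mitochondrial enzyme that oxidises the aldehydes made by monoamine oxidases as well as acetaldehyde, was found in all 14 classes. Its level ran from 458 and 381.5 CPM in fibroblast-like cells to 15.32 and 16.3 CPM in oligodendrocyte-like cells. The upper group was vascular and immune, with macrophage-like cells at 397.2 and 313.6, pericyte-like cells at 318.3 and 313.7 and endothelial-like cells at 289.6 and 317.2 CPM, and no neighbours among these 4 classes passed the threshold. Endothelial-like cells exceeded ependymal-like cells, at 214.1 and 263.7 CPM, by 0.68 ± 0.19 (adjusted p = 0.005582), and astrocyte-like cells, at 204.7 and 203.1 CPM, by 0.57 ± 0.17 (adjusted p = 0.006082). Smooth muscle-like cells had 191.7 and 156.6 CPM. A gap then separated OPC-like cells at 98.85 and 94.34 CPM, which were lower than smooth muscle-like cells by 1.33 ± 0.20 (adjusted p = 6.297e-06).

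The neural classes other than astrocytes and ependyma were low in *Aldh2*. Newly formed oligodendrocyte-like cells had 51.71 and 51.95 CPM, progenitor-like cells 49.95 and 37.06, neuron-like cells 47.23 and 25.4 and neuroblast-like cells 33.62 and 25.49 CPM. Astrocyte-like cells exceeded neuron-like cells by 2.74 ± 0.21 (adjusted p = 6.694e-11) and oligodendrocyte-like cells by 3.27 ± 0.19 (adjusted p = 2.06e-13). Along the oligodendrocyte lineage the level was stepwise lower, by 0.64 ± 0.21 from OPC-like to newly formed oligodendrocyte-like cells (adjusted p = 0.02340) and by 1.09 ± 0.21 from these to oligodendrocyte-like cells (adjusted p = 0.0002020). The immune classes differed as well: microglia-like cells had 51.4 and 61.4 CPM and were below macrophage-like cells by 2.40 ± 0.19 (adjusted p = 1.141e-09). A UMI of *Aldh2* was found in 35.51% and 42.34% of astrocyte-like cells and in 26.81% and 26.83% of microglia-like cells, and after thinning in 15.54% and 16.07% against 4.706% and 6.095%.

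*Aldh1a1*, a cytosolic enzyme that makes retinoic acid and also oxidises dopamine's aldehyde, was far more uneven. Fibroblast-like cells had 346.3 and 683.6 CPM (514.9 ± 238.5, SD, n = 2) from 35 and 20 cells, whose leading genes included *Dcn*, *Igf2* and *Col1a1*, and were higher than each of the 13 other classes, where 10.1% of all tests found fibroblast-like cells higher. They were 0.516% and 0.3837% of cells and held 10.28% and 14.68% of the *Aldh1a1* UMIs. Astrocyte-like cells were next at 58.09 and 67.23 CPM (62.66 ± 6.467), below fibroblast-like cells by 2.65 ± 0.31 (adjusted p = 5.934e-07), and held 39.8% and 48.29% of the UMIs. Pericyte-like cells had 31.24 and 44.81 CPM, and the excess of astrocyte-like cells over them, 0.99 ± 0.40, missed the threshold (adjusted p = 0.05991).

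*Aldh1a1* set astrocytes apart from endothelium in the direction opposite to *Maoa*. Endothelial-like cells had 2.977 and 4.861 CPM and were lower than astrocyte-like cells by 3.79 ± 0.38 (adjusted p = 7.166e-09) and lower than pericyte-like cells by 2.79 ± 0.54 (adjusted p = 0.0002747). Ependymal-like cells had 12.17 and 24.41 CPM, OPC-like cells 18.31 and 17.72, macrophage-like cells 21.69 and 6.4, neuron-like cells 16.16 and 4.763 and oligodendrocyte-like cells 8.637 and 6.194 CPM, and no neighbours among these passed the threshold. Microglia-like cells had 2.676 and 3.654 CPM, and smooth muscle-like cells had no UMI. The level of fibroblast-like cells over both libraries was 190-fold the limit of a count of 0 there, leaving out its own counting error. An *Aldh1a1* UMI was found in 42.86% and 70% of fibroblast-like, 12.3% and 17.57% of astrocyte-like and 1.519% and 1.561% of microglia-like cells, and after thinning in 26.09% and 30%, 4.145% and 4.937%, and 0.2941% and 0.2066%.

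The organic cation transporter gene *Slc22a3* was seen in few cells, nearly all of them neuron-like or OPC-like. Neuron-like cells had 10 and 14 UMIs in 10 and 9 cells, or 6.215 and 11.11 CPM, and OPC-like cells had 9 and 17 UMIs in 9 and 16 cells, or 4.707 and 7.529 CPM. The difference between these classes of 0.56 ± 0.55 fell short of the threshold (adjusted p = 0.4326). Elsewhere there was 1 UMI in astrocyte-like and 1 in microglia-like cells, both in library 1, and 0 in the other 10 classes. The absence was best bounded in oligodendrocyte-like cells, where 27359907 UMIs held no *Slc22a3*. The level of neuron-like cells over both libraries was 76.3-fold the limit of a count of 0 there. It was 16.3-fold the limit in endothelial-like, 14.8-fold in progenitor-like and 11.2-fold in neuroblast-like cells. In fibroblast-like cells, with 304838 UMIs, the limit lay above it. These folds leave out the counting error of the neuron-like level, which rests on 10 and 14 UMIs. OPC-like cells exceeded astrocyte-like cells by 2.54 ± 0.55 (adjusted p = 0.001773), a value that depends on the prior count. DESeq2 called 0 of the 48 pairs for which it gave an adjusted p, where it called 38.1% of the tests over all genes. It gave 0 of 91 pairs an unadjusted p under 0.05. After thinning, *Slc22a3* was left in at most 3 cells of any class and library, which is too few to order the classes.

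Among the neuron-like cells, cluster 15, led by the spiny-neuron genes *Penk*, *Pde10a* and *Arpp21*, held 10 and 13 of the 10 and 14 *Slc22a3* UMIs. Cluster 13, with a median of 730.5 UMIs per cell and the leading genes *Sst*, *Cck* and *Slc17a7*, held 0 and 1 from 364479 and 138575 UMIs. The limit a count of 0 allows in cluster 13 of library 1, 8.231 CPM, lies above the level in cluster 15 there, 8.035 CPM, so that a difference was not detectable at this depth.

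The monoamine transporter gene *Slc29a4* was highest in neuroblast-like cells, the young neurons that migrate from the ventricular wall. Its level was 22.85 and 23.36 CPM (23.11 ± 0.3661, SD, n = 2) from 70 and 22 UMIs, higher than in 12 of the 13 other classes, where 20.4% of all tests found neuroblast-like cells higher. OPC-like cells followed at 8.892 and 10.19 CPM, lower by 1.41 ± 0.47 (adjusted p = 0.01949), a call that was lost in DESeq2 (adjusted p = 0.06835). Neuron-like cells had 3.107 and 11.91 CPM and were lower by 1.63 ± 0.52 (adjusted p = 0.01352), progenitor-like cells had 7.685 and 6.574 CPM and were lower by 1.4985 ± 0.48 (adjusted p = 0.02074), and endothelial-like cells had 8.037 and 3.646 CPM and were lower by 1.59 ± 0.47 (adjusted p = 0.007221). No neighbours among these 4 middle classes passed the threshold. The exception among the 13 was the fibroblast-like class, with 2 UMIs from 1 cell of library 1 and 0 in library 2.

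Several classes held few *Slc29a4* UMIs. Astrocyte-like cells had 2 UMIs in library 1 and 0 in library 2, and neuroblast-like cells exceeded them by 4.33 ± 0.55 (adjusted p = 6.015e-07). Oligodendrocyte-like cells had 3 and 2 UMIs, microglia-like cells 0 and 2, and ependymal-like and macrophage-like cells 0 in both libraries. The level of neuroblast-like cells was 6.28-fold and 8.18-fold the limits of a count of 0 there, leaving out its own counting error. Within the neuroblast-like cells the level was alike in 2 clusters of different depth, 24.12 and 24.21 CPM in cluster 7 and 22.95 and 23.11 CPM in cluster 11, whose cells had medians of 1148 and 5860 UMIs. A *Slc29a4* UMI was found in 8.129% and 6.873% of neuroblast-like cells, and in 2.395% and 1.852% after thinning. In oligodendrocyte-like cells the shares were 0.2688% and 0.183%, and 0% and 0.09225% after thinning. The part of free RNA in these shares was not tested.

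The classes were split further to see how the genes varied inside them. At the clustering used, 14 pairs of clusters lay within a class, and over all genes 17.8% of these tests passed the threshold. *Maob* and *Aldh2* each passed it in 6 of 14 pairs, *Aldh1a1* in 4, *Maoa* in 2 and *Slc29a4* in 0, also at an unadjusted p under 0.05 (edgeR), and *Slc22a3* was not tested.

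In oligodendrocyte-like cells, *Maob* was raised in 1 of 4 clusters. Cluster 14, with 160 and 214 cells and the leading genes *Klk6*, *S100b* and *Apod*, had 17.03 and 19.95 CPM. Clusters 2, 4 and 17 had 2.895 and 3.402, 2.264 and 4.342, and 1.962 and 2.518 CPM, and neither library of any of them overlapped with cluster 14. The difference from cluster 2, whose median cell had 12977.5 UMIs against 17588.5 in cluster 14, was 2.17 ± 0.26 (adjusted p = 5.482e-08), in a contrast where 4.94% of all genes were called. It was 2.56 ± 0.31 from cluster 17 (adjusted p = 1.315e-08, 16.5% of all genes called) and 2.07 ± 0.44 from cluster 4 (adjusted p = 0.0002678, 32.7% called). Cluster 4 held 3 and 3 *Maob* UMIs, had 3 of 7 oligodendrocyte markers raised and a median of 2510 UMIs per cell. Its median mitochondrial share was 22.32%, against 4.907% in cluster 14, and the part of depth and mitochondrial share was not tested. *Maoa* was at 38.18 and 39.08 CPM in cluster 14 and 40.35 and 39.28 in cluster 2, and *Maob* made up 30.85% and 33.79% of the oxidase UMIs in cluster 14 and 6.695% and 7.971% in cluster 2. The summed level of the astrocyte markers was 365.6 and 334 CPM in cluster 14, 336.2 and 270.1 in cluster 2, 911.7 and 450.1 in cluster 4 and 235.1 and 138.8 in cluster 17, and its part in the difference was not tested. *Aldh2* and *Aldh1a1* divided the clusters otherwise: *Aldh2* was at 7.194 and 6.925 CPM in cluster 17, lower than in cluster 2 by 1.13 ± 0.23 (adjusted p = 0.0004019), and *Aldh1a1* was lower there by 1.46 ± 0.38 (adjusted p = 0.006237), in a contrast where 11.8% of all genes were called.

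In astrocyte-like cells, cluster 3 was low in both *Maob* and *Aldh2*. *Aldh2* was at 86.95 and 66.58 CPM there, at 233.8 and 221.8 in cluster 5 and at 266.6 and 262.5 in cluster 6, and cluster 3 was below cluster 5 by 1.61 ± 0.19 (adjusted p = 3.031e-08). *Maob* was at 17.6 and 21.64 CPM, against 72.06 and 72.69 in cluster 5 and 62.9 and 60.79 in cluster 6, lower than in cluster 5 by 1.91 ± 0.28 (adjusted p = 1.955e-06). *Maoa* was lower than in cluster 5 by 0.64 ± 0.23 (adjusted p = 0.03822), and *Aldh1a1*, at 39.33 and 63.25 CPM against 60.85 and 67.15, did not pass the threshold. Over all genes, 24.3% were called between clusters 3 and 5. Cluster 3 had a median of 1729.5 UMIs per cell and a median mitochondrial share of 10.81% and 15.26%, and 7786 UMIs was the median in cluster 5. Cluster 6 had a median of 1280 UMIs per cell, and its differences from cluster 5 did not pass the threshold for *Aldh2* (adjusted p = 0.3234) or *Maob* (adjusted p = 0.8064). The part of depth and mitochondrial share in the low levels of cluster 3 was not tested.

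Endothelial-like cells fell into a deep and a shallow cluster, and *Maoa* and *Aldh2* were higher in the deep one. *Maoa* was at 231.4 and 338.7 CPM in cluster 1 and 161.9 and 163.3 in cluster 8, a difference of 1.02 ± 0.21 (adjusted p = 0.002597). *Aldh2* was higher in cluster 1 by 0.97 ± 0.20 (adjusted p = 0.002597), in a contrast where 6.31% of all genes were called. The median cell had 4767 UMIs and a mitochondrial share of 4.225% in cluster 1 and 892.5 UMIs and 8.327% in cluster 8. Oligodendrocyte markers summed to 2289 and 827.5 CPM in cluster 1 and 6232 and 2257 in cluster 8, and astrocyte markers to 403.8 and 293 and to 1579 and 752.2 CPM. The level of *Maoa* in each cluster was above that of every other class, and the part of depth, mitochondrial share and other cells' RNA in their difference was not tested. In neuron-like cells *Aldh1a1* was at 49.39 and 36.08 CPM in the shallow cluster 13 and 6.428 and 0.8919 in cluster 15, a difference of 3.30 ± 0.59 (adjusted p = 8.977e-05, 15% of all genes called). *Maob* was higher in cluster 13 by 2.05 ± 0.68 (adjusted p = 0.03365). That call rests on few molecules, 3 and 3 *Maob* UMIs in cluster 13 against 3 and 2 in cluster 15. Astrocyte markers moved with these differences, at 4760 and 2179 CPM in cluster 13 and 916.8 and 284.5 in cluster 15, as did oligodendrocyte markers, at 7882 and 2432 against 2118 and 1500 CPM. Neuron markers were at 1964 and 3449 CPM in cluster 13 and at 11830 and 15260 in cluster 15, and the part of these in the differences was not tested.

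**Figure D3:**
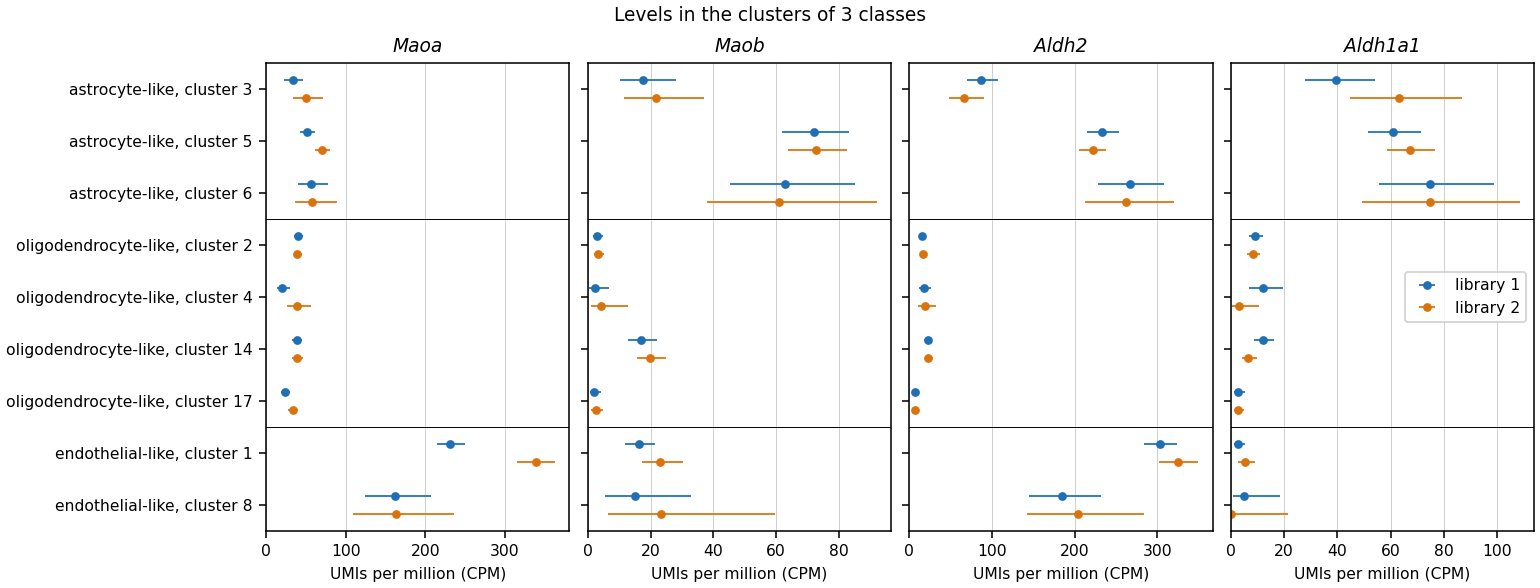
Levels in CPM (x axes, linear) of *Maoa*, *Maob*, *Aldh2* and *Aldh1a1* in the clusters of astrocyte-like, oligodendrocyte-like and endothelial-like cells (y axis), with library 1 in blue, library 2 in orange and exact Poisson 95% intervals. *Maob* in oligodendrocyte-like cluster 14, at 17.03 and 19.95 CPM, is above the 3 other oligodendrocyte-like clusters, and *Maob* and *Aldh2* in astrocyte-like cluster 3 are below clusters 5 and 6.

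One part of the study asks how *Crym*-positive astrocytes differ from *Crym*-negative ones. The paper also reports less monoamine oxidase B in mice with *Crym* knocked out in striatal astrocytes, and its methods list an antibody against that enzyme. That is another contrast and another measure, so the RNA levels here are not set against it. The genes were compared between the 481 and 434 positive and 730 and 539 negative astrocyte-like cells. *Aldh2* was higher in positive cells, at 234.7 and 231.7 CPM against 172.1 and 167.1, by 0.43 ± 0.10 on the log2 scale (adjusted p = 0.000559, edgeR), without overlap between the groups. In this comparison 10.9% of the 6104 genes tested were called and 4.21% were higher in positive cells. *Maob* was at 64.48 and 74.53 CPM against 50.61 and 51.58, higher in positive cells of both libraries, but the difference of 0.41 ± 0.15 missed the threshold (adjusted p = 0.05420). *Maoa*, at 56.13 and 65.59 against 38.97 and 67.16 CPM, and *Aldh1a1*, at 57.05 and 65.16 against 59.21 and 69.84 CPM, did not pass it (adjusted p = 0.525 and 0.722). The transporters had at most 1 UMI in each group and library and were below the filter, and with no filter neither passed (adjusted p = 0.8545 for *Slc22a3* and 0.9937 for *Slc29a4*, edgeR).

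The *Crym* groups were not alike in depth or in clusters. The median cell had 2589 and 5239.5 UMIs among positive and 1623.5 and 1973 among negative cells. Cluster 3, which was low in *Aldh2* and *Maob*, made up 28.69% and 25.12% of positive and 44.93% and 43.6% of negative cells. Without cluster 3, an alternative that was added once the data had been seen, the difference in *Aldh2* was 0.33 ± 0.10 (adjusted p = 0.04330) and that in *Maob* 0.31 ± 0.15 (adjusted p = 0.3650). With each cell thinned to 1000 UMIs, that in *Aldh2* was 0.42 ± 0.17 (adjusted p = 0.1212), and without the library block, where 1 of 6104 genes was called, its adjusted p was 0.8249. The adjusted p of *Aldh2* was 0.01958 under 20% mitochondrial UMIs (edgeR) and 0.7551 in DESeq2. With the block, the estimate of spread in this comparison came mostly from other genes, so the p-values say little of how each gene varied between the libraries.

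**Figure D4:**
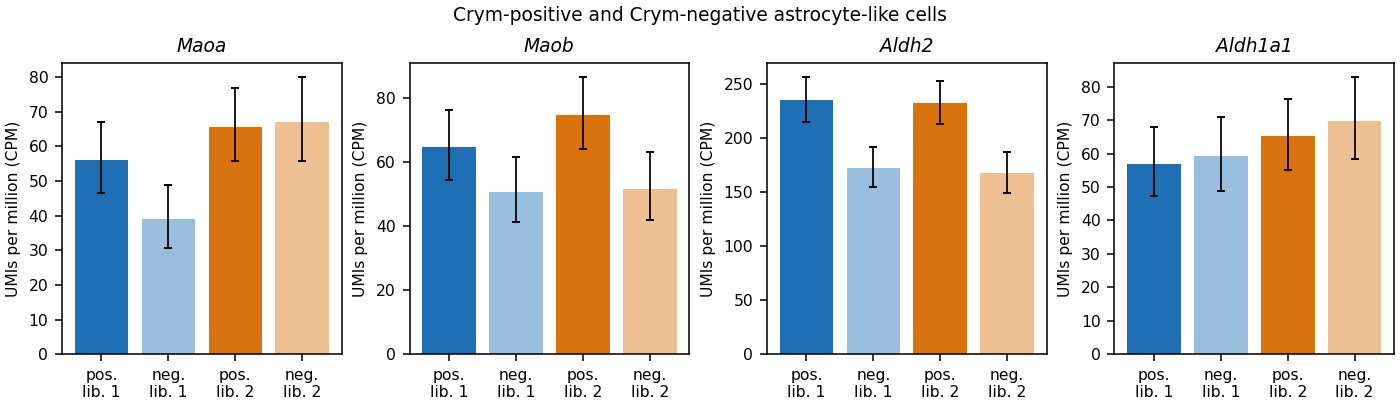
Levels in CPM (y axes, linear from 0) of *Maoa*, *Maob*, *Aldh2* and *Aldh1a1* in *Crym*-positive (pos., full colour) and *Crym*-negative (neg., pale) astrocyte-like cells of library 1 (blue) and library 2 (orange), with exact Poisson 95% intervals. *Aldh2* is higher in positive cells of both libraries, at 234.7 and 231.7 against 172.1 and 167.1 CPM, *Maob* is higher in positive cells of both libraries, and *Maoa* is higher in positive cells of library 1 alone.

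The other genes of monoamine metabolism place these patterns beside synthesis, loading, uptake and further breakdown. Of 28 such genes, 18 had enough counts to be tested, and 766 of their 1638 tests between classes (46.8%) passed the threshold, against 40.7% over all genes. Between astrocyte-like and endothelial-like cells, 4 were higher in the former, 6 were higher in the latter and 8 were not called, where 56% of all genes were called. *Hnmt*, which methylates histamine, was higher in astrocyte-like cells by 3.69 ± 0.34 (adjusted p = 1.389e-09), and *Ddc*, the decarboxylase that makes dopamine and serotonin, was lower by 5.69 ± 0.21 (adjusted p = 2.169e-15). Between astrocyte-like and oligodendrocyte-like cells the counts were 6 higher, 5 lower and 7 not called, where 57.4% of all genes were called. Against microglia-like cells they were 3, 5 and 10, where 60.3% of all genes were called, and against neuron-like cells 6, 3 and 9, where 50.4% were.

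The class named highest for each of these genes is the one with the highest mean of both libraries. For synthesis and loading, the endothelial-like cells that led in *Maoa* also led in *Ddc*, at 167.9 and 156.8 CPM. *Hdc*, which makes histamine, was highest in ependymal-like cells at 189.8 and 90.33 CPM. *Th*, the first enzyme of dopamine synthesis, reached 36.05 and 10.32 CPM in neuron-like cells, from 58 UMIs in 5 cells and 13 UMIs in 3 cells, and the vesicular transporter gene *Slc18a2* was highest in progenitor-like cells at 12.08 and 11.95 CPM. The high-affinity transporters *Slc6a2*, *Slc6a3* and *Slc6a4* of monoaminergic neurons, whose cell bodies lie outside the striatum, had 4, 7 and 2 UMIs in all. *Slc22a2*, the organic cation transporter 2, had 27 UMIs in 4 fibroblast-like cells of library 1 and 0 in the fibroblast-like cells of library 2.

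For the other routes of breakdown, *Sult1a1*, a sulfotransferase, was highest in macrophage-like cells at 323.7 and 119.5 CPM, and *Aoc3*, a copper amine oxidase of the cell surface, in smooth muscle-like cells at 259.3 and 244.7 CPM, which held no *Maob*. *Aldh1a2*, another maker of retinoic acid, was highest in fibroblast-like cells at 312.8 and 294.1 CPM, as was *Aldh1a1*. *Aldh7a1*, another aldehyde dehydrogenase, and *Sat1*, which acetylates polyamines ahead of monoamine oxidase B, were highest in astrocyte-like cells, at 163.8 and 156.8 and at 474.6 and 633.8 CPM, although *Aldh7a1* in fibroblast-like cells was at 178.7 CPM in library 1 and 119.2 in library 2. Both were higher there than in endothelial-like cells, *Aldh7a1* by 2.61 ± 0.22 (adjusted p = 1.538e-10) and *Sat1* by 1.66 ± 0.25 (adjusted p = 2.885e-06). The excess in *Sat1* over microglia-like cells, at 365.7 and 424.5 CPM, was 0.16 ± 0.24 and missed the threshold (adjusted p = 0.5881, edgeR). Macrophage-like cells had 452.2 and 371.2 CPM of *Sat1* and did not differ past the threshold either. Nor did ependymal-like cells in *Aldh7a1*, at 129 and 148.9 CPM. *Odc1*, the other gene of the list for polyamine steps ahead of monoamine oxidase B, was instead highest in progenitor-like cells at 454.8 and 588.1 CPM.

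**Figure D5:**
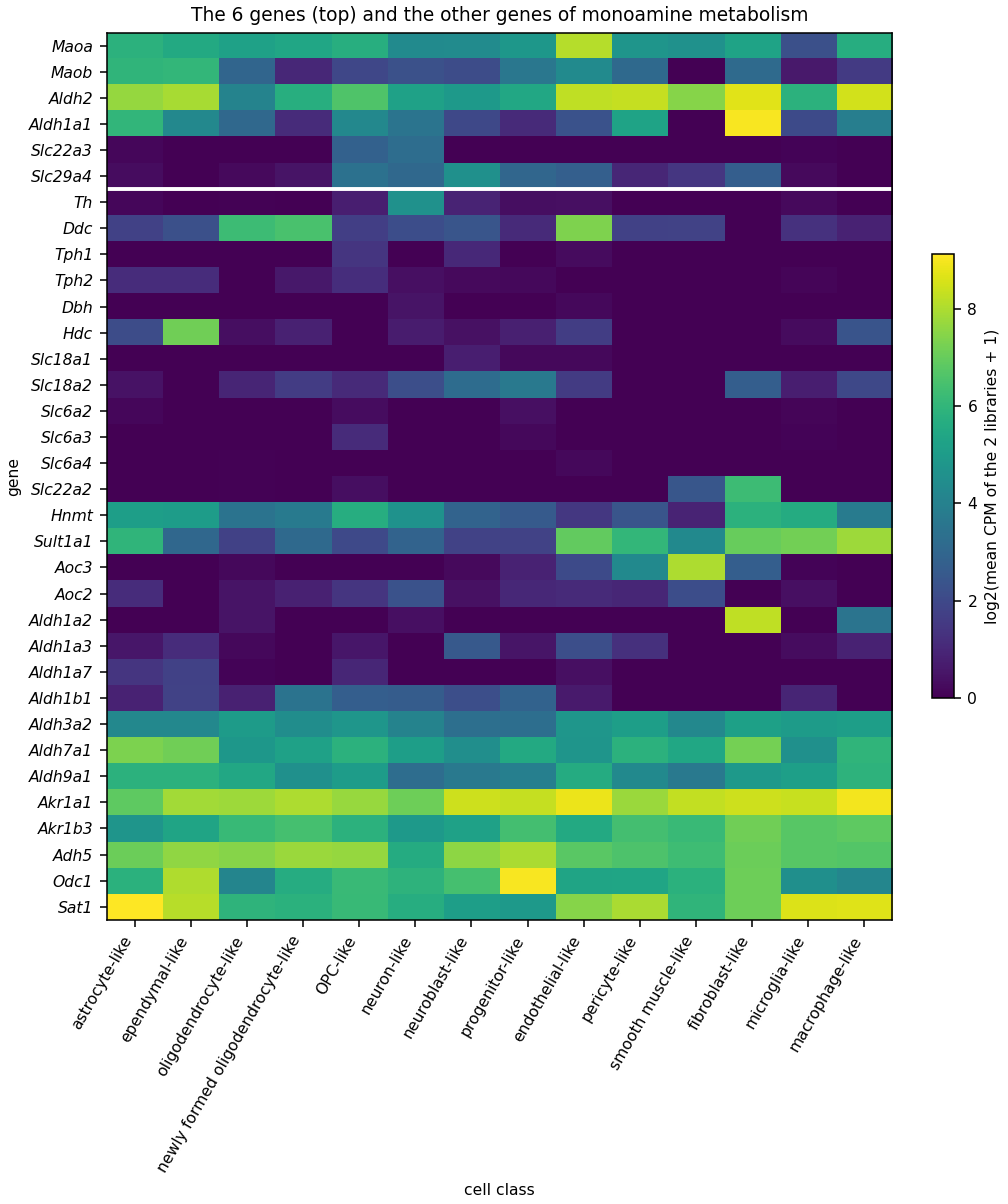
The colour gives log2(mean CPM of the 2 libraries + 1) of the 6 genes (top) and 28 other genes of monoamine metabolism (y axis) in 14 cell classes (x axis), to be read along each row. *Ddc* is brightest in endothelial-like cells, *Aoc3* in smooth muscle-like cells and *Hdc* in ependymal-like cells, and the rows of *Slc6a2*, *Slc6a3* and *Slc6a4* are dark throughout.

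The genes with the most similar levels over the 28 sums of 14 classes were found by Pearson's r of log2(CPM + 10), which describes sums that share libraries and depth. For *Maoa* these were *Ppp3cc* (r = 0.894), *Tmem238* (0.843) and *Rsad2* (0.823). For *Maob* they were the metallothioneins *Mt2* (0.917) and *Mt1* (0.891) and *Fam107a* (0.883), all highest in astrocyte-like cells. For *Aldh2* they were *Tnfsf12* (0.917), *Agtrap* (0.904) and *Ifitm3* (0.877), and for *Aldh1a1* *Ranbp3l* (0.922), *D630033O11Rik* (0.91) and *Gjb2* (0.899), the latter all highest in fibroblast-like cells. For *Slc22a3* they were *Cdh18* (0.981), *Shh* (0.974) and *Kcnj6* (0.974), highest in neuron-like cells. These r rest on 52 *Slc22a3* UMIs, nearly all in neuron-like and OPC-like cells, and thus on few sums above 0. For *Slc29a4* the genes were *Samd10* (0.908), *Zfp57* (0.9) and *Zfp786* (0.866), highest in neuroblast-like cells. No gene was shared between the 6 lists of 3.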

How the data were processed

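The authors aligned reads to mm10 with Cell Ranger (4.0 in the submitters' processing notes, 3.0 in the paper's methods) and deposited UMI counts of each gene in each cell, not normalised. Depth was 44597660 and 37982720 UMIs.

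Cells with at least 300 genes were kept and Scrublet doublets (115 and 152; scanpy 1.11.5, expected rate 6%) removed. Seurat 5.3.0 integrated the libraries and clustered cells on 30 components without the genes described and without 97 cell-cycle genes, some of them markers of the progenitor-like class. A resolution of 0.08, after the study's coarse classes, merged neurons with oligodendrocytes, so 27 clusters at 0.8 were named by 3 or more raised markers and merged by name, a choice made after seeing the data. The genes, lists and markers were chosen with earlier results of these data known. The text names the 6 genes, 28 genes of monoamine metabolism (the other genes of that list are not reported here) and the 3 genes most similar to each.

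Sums of UMI counts were made for each class, or *Crym* group, of a library (positive above 0.25 on the natural log scale of UMIs per 10000, the same cells as those with at least 1 UMI), and these were fitted in edgeR 4.0.16 (R 4.3.3; TMM, filterByExpr or, for *Crym*, detection in 10% of cells; prior count 2) with the library as a block. Groups of one library come from one suspension, so the pairing comes from the design. The test of classes was also run on class sums simulated from the fit to these data. Intervals are exact at 95%, and a count of 0 allows 3 counts. Both cover counting error only. A fold over such a limit leaves out the counting error of the higher class. The paper's methods call replicates biological and describe several mice, but which mice entered which library is not given in the sources used here. With the block, p-values set differences between groups against how differences varied between these libraries. The estimate of this spread draws on all groups of a fit and on other genes. In the *Crym* fit, with the positive and negative sums of 2 libraries alone, it comes mostly from other genes. Alternatives were DESeq2 1.42.0, library sizes alone, no filter, no block, resolutions 0.32 and 0.08, doublets kept, at least 500 genes, under 20% mitochondrial UMIs, thinning to 1000 UMIs, adjustment over genes and pairs together, and each library left out. Gene positions are from GENCODE vM21 by gene identifier, and upstream sequences from RefSeq on GRCm38.p6, whose table held 4 of the 6 genes. Other data of the paper were not analysed here.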

Additional observations from a re-analysis of the deposited data

How the results depend on the processing

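The number of libraries, 2, limits every test, and depth limits the transporter genes and the fibroblast-like and ependymal-like classes.
The percent of pairs of classes that passed the threshold was 82.1 for *Maoa* and 35.7 for *Slc22a3* at resolution 0.08, a clustering that mixed cell types and left fewer classes, against 52.4 over all genes. With cells thinned to 1000 UMIs it was 27.5 for *Maoa*, 24.2 for *Maob* and 25.3 for *Aldh1a1*, with fewer counts, against 25.1 over all genes, and the transporters could not be tested. DESeq2 called 0% of the 48 pairs with an adjusted p for *Slc22a3*, against 38.1 over all genes, and 0 of 91 had an unadjusted p under 0.05. Without 1 library no residual degrees of freedom were left to test the pairs. The difference of *Maob* in ependymal-like over astrocyte-like cells was 0.087 with library sizes alone, 0.076 thinned and from -0.713 to 0.204 without 1 replicate, and that of *Aldh2* in fibroblast-like over macrophage-like cells was 0.242 with library sizes alone and from -0.258 to 0.012 without 1 replicate, so neither has a direction here.

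In the *Crym* comparison, *Aldh2* lost its call with no replicate block (0.428), in DESeq2 (0.430; adjusted p = 0.7551, 37 genes called) and thinned (0.415), at about the same size. *Maob* passed the threshold with library sizes alone (0.422, adjusted p = 0.04472) and with no filter (0.474, adjusted p = 0.04255). Thus 2 of the 4 enzymes passed with library sizes alone (631 of 6104 genes called) and with no filter (655 of 18664). With no replicate block 0 passed (1 of 6104 genes called). There 2 of 4 enzymes and 366 of 6104 genes had an unadjusted p under 0.05 (edgeR). In DESeq2 0 passed, and 1 of 4 enzymes and 232 of 6104 genes had such a p. Thinned, 0 passed (182 of 1563 genes called), and 1 of 1 enzymes and 461 of 1563 genes had such a p (edgeR). *Maoa* was at -0.067 without replicate 1 and 0.495 without replicate 2. The cause of these changes was not tested.

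Mean shares of cells with a UMI fell with thinning, by its construction: 20.7% for *Maoa* in endothelial-like, 5.89% for *Maob* in ependymal-like, 27.4% for *Aldh2* and 28.0% for *Aldh1a1* in fibroblast-like, 0.790% for *Slc22a3* in neuron-like and 2.12% for *Slc29a4* in neuroblast-like cells. At resolution 0.32, where neuron-like cells of the main clustering made up 382 of 414 cells named ependymal-like, *Maob* in ependymal-like cells was 37.6 CPM in 4.57% of cells and *Slc22a3* was found in 4.92% of neuron-like cells. At resolution 0.08 *Slc22a3* was found in 1.41% of neuron-like cells, and *Slc29a4* in neuroblast-like cells was 12.3 CPM, against 22.0 thinned. Without the replicate block the percent of pairs called was 53.8 for *Maoa*, 59.3 for *Maob* and 78.0 for *Aldh2*, against 37.8 over all genes. None of the 9 differences between classes computed under every setting changed its call there. Of these 9, *Maob* at resolution 0.32 gained one, and *Slc22a3* of neuron-like over astrocyte-like cells in DESeq2, *Slc29a4* of neuroblast-like over OPC-like cells in DESeq2 and at resolution 0.08, and *Aldh2* of fibroblast-like over astrocyte-like cells thinned lost theirs.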
